A study of Mus musculus with 18 samples.

Results

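The flavin-containing monooxygenase genes Fmo1, Fmo2, Fmo4 and Fmo5 were followed in mouse liver RNA. They were chosen by gene name and are 4 of the 32285 genes of the count table. All 4 had counts in all 18 libraries and passed the filter on low counts. Fmo6 and Fmo9 are described beside them.

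The livers came from 3 groups of 6 wild-type B6D2F1 mice. Space pups and Ground pups descend on the paternal side from GS cells, a culture of spermatogonial stem cells that was established from DBA/2 testes (per the methods from an EGFP transgenic line bred onto DBA/2). The cells spent 6 months in the frozen state, either aboard the International Space Station (Space) or on Earth (Ground), and were then thawed and transplanted into testes of congenitally infertile W mice, which were mated with C57BL/6 females. Pups were 10 weeks old when sampled. Both pup groups thus share culture, freezing and transplantation, and the BDF1 group, wild-type B6D2F1 mice from natural mating, had none of these. The age of the BDF1 mice was not given in the sources used here, and the fathers and litters of the pups were not either. The question put to the livers was whether gene expression in the pups was like that of naturally conceived mice.

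Flavin-containing monooxygenases are enzymes of the endoplasmic reticulum that hold FAD, take electrons from NADPH and add an oxygen atom to nitrogen and sulfur atoms of foreign chemicals and diet-derived amines. They act beside the cytochromes P450 in the phase I metabolism of drugs. FMO1 is a classical oxidase of this kind, FMO2 is best known from lung, and FMO5 works mainly as a Baeyer-Villiger oxidase of ketones. In mouse liver several Fmo genes are known to differ in level between the sexes.

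Fmo4, Fmo1, Fmo2 and Fmo6 lie in this order on chromosome 1 of mm10, all on the minus strand: Fmo4 at chr1:162793188-162813972, Fmo1 at chr1:162829561-162866610, Fmo2 at chr1:162874317-162898726 and Fmo6 at chr1:162916551-162937515. Fmo9 is farther along at chr1:166662055-166681845. Fmo5 stands apart at chr3:97628804-97655282 on the plus strand. No exon of the 4 members overlapped an exon of another gene in the GENCODE M21 annotation. The libraries were stranded, but the strand setting of the counting is not given in the sources used here.

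Promoter windows are shown for Fmo5, the member whose level ran opposite to the others between the sets of replicates described below, and for Fmo4 and Fmo2, members of the chromosome 1 cluster. They are RefSeq sequence of GRCm38.p6 and run 5′ to 3′ on the gene's strand, from 250 bases before to 50 bases after a start annotated by RefSeq. These starts lie inside the gene spans given above, downstream of the outermost start. The Fmo4 window lies wholly within its gene, and the Fmo5 and Fmo2 windows begin before theirs and run into them. A window was present for 3 of the 4 members.

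Fmo5 (chr3:97628769-97629068, plus strand): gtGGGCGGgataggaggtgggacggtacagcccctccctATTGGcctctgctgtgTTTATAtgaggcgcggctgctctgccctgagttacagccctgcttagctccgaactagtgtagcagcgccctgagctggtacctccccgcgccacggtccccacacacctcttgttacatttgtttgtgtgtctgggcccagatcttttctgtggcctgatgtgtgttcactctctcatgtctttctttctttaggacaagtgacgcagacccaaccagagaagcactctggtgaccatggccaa
Fmo4 (chr1:162812500-162812799, minus strand): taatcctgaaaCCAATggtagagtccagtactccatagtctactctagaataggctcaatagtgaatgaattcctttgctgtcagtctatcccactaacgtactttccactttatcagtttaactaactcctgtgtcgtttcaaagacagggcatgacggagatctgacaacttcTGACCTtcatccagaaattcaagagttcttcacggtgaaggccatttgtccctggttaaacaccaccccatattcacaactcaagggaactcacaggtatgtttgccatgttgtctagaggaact
Fmo2 (chr1:162898444-162898743, minus strand): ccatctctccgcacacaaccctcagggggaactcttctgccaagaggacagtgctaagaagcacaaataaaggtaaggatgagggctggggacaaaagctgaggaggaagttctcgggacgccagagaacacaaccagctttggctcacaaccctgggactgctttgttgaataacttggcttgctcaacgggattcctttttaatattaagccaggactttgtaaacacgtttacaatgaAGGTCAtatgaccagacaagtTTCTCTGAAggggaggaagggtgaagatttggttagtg

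Capitals mark matches, on either strand, to 5 motifs that were searched by letters: TATAAA for a TATA box, CCAAT for a CCAAT box, GGGCGG for a GC box, AGGTCA for an element of nuclear receptors and TTCNNNGAA for an element of STAT factors. Matches did not overlap each other. The Fmo5 window held a GC box, a CCAAT box and a TATA box in its upstream end, at positions −248, −211 and −195 from the RefSeq start, of which the CCAAT and TATA letters lie inside the gene span of Fmo5. In the Fmo4 window CCAAT was at position −239 and AGGTCA at −75, both inside the gene span. The Fmo2 window held AGGTCA at position −9 and the STAT letters at 12, inside its gene span too. A window at another annotated Fmo2 start, chr1:162898709-162899008, held no match. That start lies before the gene span, so this window, which is not printed, is the farther upstream of the Fmo2 windows. Among 32851 promoter windows of this length, 13.6% held TATAAA, 37.4% CCAAT, 35.7% GGGCGG, 16.3% AGGTCA and 8.30% TTCNNNGAA. GC content was 56.0% in the Fmo5 window, 42.7% in that of Fmo4 and 47.7% in that of Fmo2, against a median of 52.7% over all windows. These are matches of letters, and binding of a factor was not measured.

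Libraries held 15407450 to 20562351 counts. Xist had 0 to 187 counts in replicates 1 to 3 of every group and 12218 to 21557 in replicates 4 to 6, while 4 Y-linked genes summed to 1822 to 2482 and 0 to 26 counts. Sex is not among the labels, and per the paper males and females were both taken. Groups were therefore compared within each set of replicates, 3 libraries against 3. Space replicate 4 and Ground replicates 5 and 6 stood apart, with Serpina6, the gene of corticosteroid-binding globulin, at 45256, 44895 and 30939 CPM (counts scaled to the effective library size) against 742 to 1003 CPM in the other 6 libraries of replicates 4 to 6. Tests of the 4 members and of the named genes of the lists below, and the correlations, were also computed without these 3 libraries. In Space replicate 6 haploid germ cell genes summed to 46.3 CPM, against at most 4.75 CPM elsewhere. Hepatocyte markers were high in every library and those of lung and kidney summed to at most 3.96 and 0.328 CPM. In such bulk tissue fewer cells of a type and less RNA per cell cannot be told apart.

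Fmo5 had the highest mean CPM of the members in both sets. In replicates 1 to 3 it reached 1242, 1188 and 1079 CPM in Space, 1436, 1114 and 1225 in Ground, and 841, 506 and 654 in BDF1. Every pup liver of this set was above every BDF1 liver. In replicates 4 to 6 the values were 195, 686 and 765 CPM in Space, 625, 117 and 218 in Ground, and 594, 493 and 582 in BDF1. Here the pup livers spread on both sides of BDF1, and the lowest 3 values were those of the Serpina6-high libraries.

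Fmo1 was lower by count than Fmo5 in replicates 1 to 3, with 206, 164 and 173 CPM in Space, 156, 213 and 146 in Ground, and 140, 186 and 142 in BDF1. Among replicates 4 to 6 Fmo1 reached 341, 355 and 313 CPM in Space, 282, 295 and 334 in Ground, and 430, 411 and 440 in BDF1. The 3 BDF1 livers were the highest of this set, and Space and Ground overlapped.

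Fmo2 stood at 26.8, 15.2 and 28.3 CPM in Space, 17.4, 32.8 and 20.9 in Ground, and 13.2, 32.8 and 24.0 in BDF1 among replicates 1 to 3. It stood at 50.05, 33.6 and 47.5 CPM in Space, 29.4, 68.4 and 62.3 in Ground, and 61.6, 55.3 and 57.8 in BDF1 among replicates 4 to 6. Ground spanned the whole range of the other groups in the latter set.

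Fmo4 was the scarcest member. Its values were 8.47, 9.69 and 12.5 CPM in Space, 3.85, 14.1 and 4.74 in Ground, and 5.25, 12.5 and 10.8 in BDF1 among replicates 1 to 3. They were 31.1, 26.0 and 19.6 CPM in Space, 22.8, 27.6 and 29.8 in Ground, and 23.6, 21.9 and 26.1 in BDF1 among replicates 4 to 6. Groups overlapped in both sets, and the 2 sets did not.

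**Figure D1:**
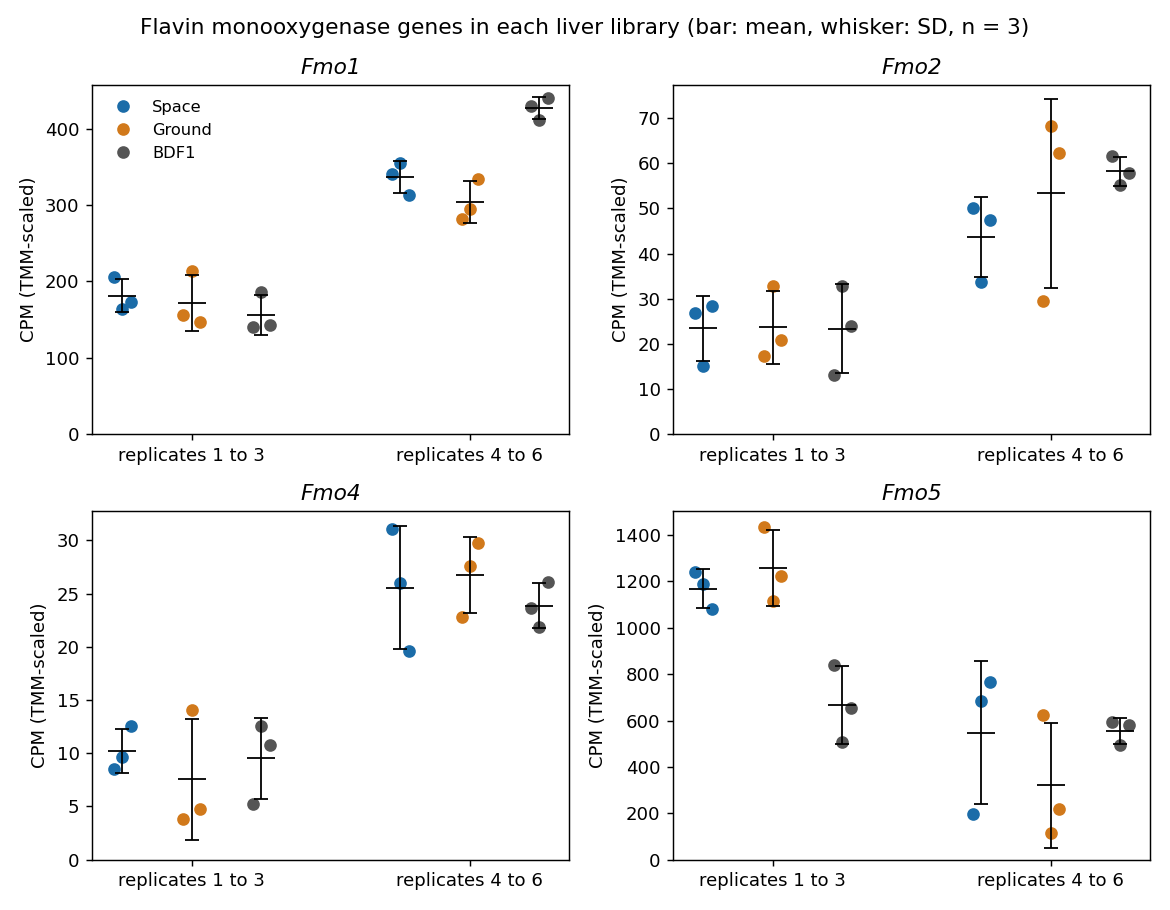
CPM (TMM-scaled, linear axis from 0) of Fmo1, Fmo2, Fmo4 and Fmo5 in each of the 18 liver libraries, by group and set of replicates. Points are libraries, the bar is the mean and the whisker the SD of 3. Fmo1 and Fmo4 do not overlap between the sets, and Fmo5 in the pups of replicates 1 to 3 lies above BDF1.

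All 4 members differed between the sets of replicates, in edgeR's quasi-likelihood test with Benjamini-Hochberg adjustment over 13356 genes and the mean over the 3 groups. Among all genes tested 38.0% were called in this comparison, 19.4% higher and 18.6% lower in replicates 4 to 6, so a call here is common. Fmo4 was higher by a log2 fold change of 1.49 (SE 0.215, adjusted p = 4.587e-05), a 2.81-fold rise from 9.10 ± 3.76 to 25.4 ± 3.76 CPM (SD, n = 9). Fmo2 was higher by 1.13 (SE 0.198, adjusted p = 0.0002896), from 23.5 ± 7.32 to 51.8 ± 13.1 CPM. Fmo1 was higher by 1.06 (SE 0.0870, adjusted p = 9.911e-08), from 170 ± 27.3 to 356 ± 58.5 CPM.

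Fmo5 moved the other way. Its log2 fold change was −1.11 in replicates 4 to 6 (SE 0.277, adjusted p = 0.004703), from 1032 ± 303 to 475 ± 237 CPM (SD, n = 9). By group its mean went from 1170 to 548 CPM in Space, from 1258 to 320 in Ground and from 667 to 556 in BDF1. The fall thus lay mostly in the pups, the BDF1 livers of the sets overlapped, and BDF1 alone was not tested. Fmo1, Fmo2 and Fmo4 had a higher mean in replicates 4 to 6 in each group. The 9 libraries of one set and the 9 of the other did not overlap for Fmo1 and Fmo4, both higher in replicates 4 to 6, which was so for 2.63% of all genes. For Fmo2 and Fmo5 the sets overlapped. Without the 3 Serpina6-high libraries the fall of Fmo5 was −0.65 and passed the test. Among the marker lists, the pancreas list was nearly all Cela1. It summed to 35.6 to 55.8 CPM in replicates 1 to 3 and 6.70 to 38.9 in replicates 4 to 6. Cholangiocyte markers (4 of 4, none at 0) summed to 6.92 to 13.8 and 2.49 to 7.75 CPM, and hepatocyte markers to 63871 to 97969 and 79911 to 394340 CPM. The ranges overlapped, and their part in the member differences was not tested.

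Of the genes beside the members, Fmo6 had at most 2 counts in any library of replicates 1 to 3 and 8 to 22 in each of replicates 4 to 6, and Fmo9 had none in the 18 libraries, where a count of 0 allows up to 3 counts. Fmo6 passed the filter on low counts through replicates 4 to 6 alone, so its difference between the sets is a description and no test of it is given.

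Levels were compared between the genes per kilobase of merged exons (6304 bases in Fmo1, 5609 in Fmo2, 3707 in Fmo4 and 5675 in Fmo5). In replicates 1 to 3 the order was Fmo5 with 182 ± 53.4 CPM per kilobase, Fmo1 with 26.9 ± 4.33, Fmo2 with 4.19 ± 1.31 and Fmo4 with 2.45 ± 1.01 (SD, n = 9). Each gene was above the next in all 9 libraries. In replicates 4 to 6 Fmo5 led with 83.7 ± 41.8 CPM per kilobase, followed by Fmo1 with 56.4 ± 9.28, Fmo2 with 9.23 ± 2.34 and Fmo4 with 6.85 ± 1.01.

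Some neighbours in the latter order overlapped, since Fmo5 was above Fmo1 in 6 of 9 libraries and Fmo2 above Fmo4 in 7 of 9. With the longest transcript as length, which more than doubles the Fmo1 value to 114.5 CPM per kilobase in this set, Fmo5 at 91.4 was above Fmo1 in 3 of 9 libraries only. Their order in replicates 4 to 6 thus depends on the transcript assumed, while in replicates 1 to 3 Fmo5 led in all 9 libraries by both lengths.

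As shares of the summed level of the 4 members per kilobase, Fmo5 made up 83.3% ± 6.02 in replicates 1 to 3 and 49.9% ± 15.998 in replicates 4 to 6 (SD, n = 9). Fmo1 made up 13.3% ± 4.26 and 38.4% ± 10.5, Fmo2 2.13% ± 1.11 and 6.68% ± 3.57, and Fmo4 1.27% ± 0.735 and 4.93% ± 2.28. Since shares add up to the whole, they do not move independently.

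**Figure D2:**
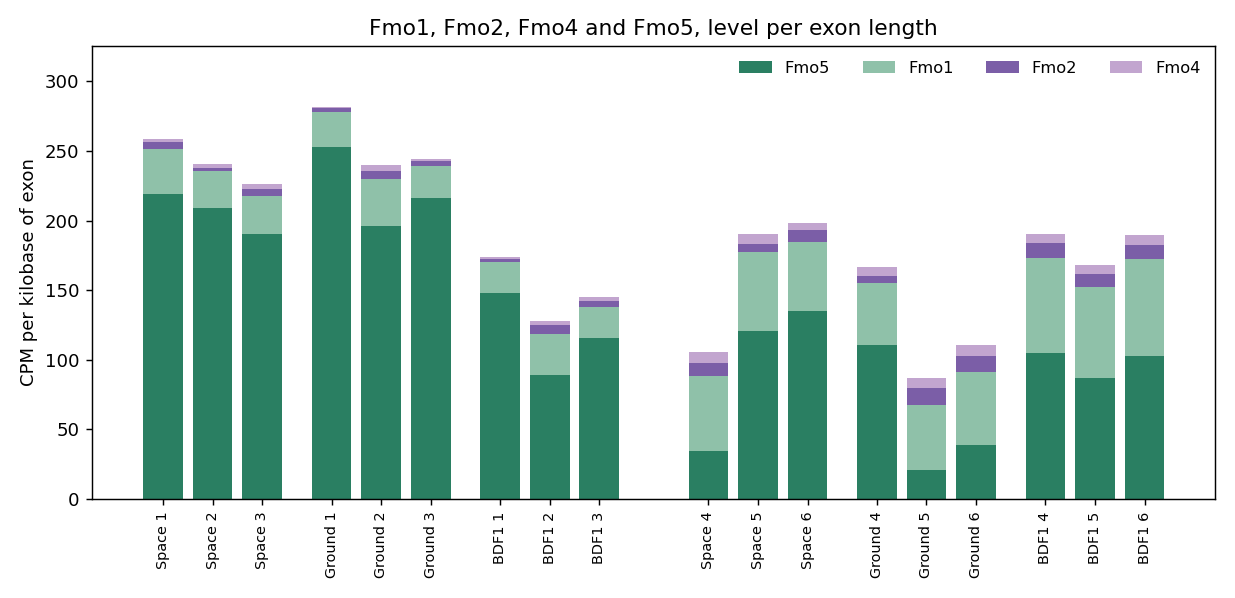
Level of Fmo1, Fmo2, Fmo4 and Fmo5 in CPM per kilobase of merged exons, stacked, 1 bar per liver library. Fmo5 makes up most of each bar in replicates 1 to 3, Fmo1 takes more of the bars in replicates 4 to 6, and Fmo5 is smallest in Space 4, Ground 5 and Ground 6.

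Space and Ground pups were compared first, which the labels set apart by where the GS cells were kept frozen. Differences of father or litter cannot be told apart from this. No member was called in either set. Over all genes 0.00749% were called in replicates 1 to 3 and 0.0225% in replicates 4 to 6 by edgeR, which is 1 and 3 genes (1292 and 1852 at an unadjusted p under 0.05). The 4 member values overlapped between Space and Ground in both sets. For Fmo1 the difference of Space from Ground was 0.08 on the log2 scale (SE 0.149) in replicates 1 to 3 and 0.15 (SE 0.149) in replicates 4 to 6.

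Differences of the other members between Space and Ground had wider errors. For Fmo5 it was −0.11 (SE 0.474, adjusted p = 0.9685) in replicates 1 to 3 and 0.78 (SE 0.477, adjusted p = 0.4841) in replicates 4 to 6. The latter was 0.21 without the 3 Serpina6-high libraries, 1.71 without Ground replicate 4, 1.18 without Space replicate 4, 0.46 without Space replicate 6 and 0.38 without Ground replicate 5, and it was not called in any of 25 alternatives. The Fmo4 difference was 0.44 (SE 0.382, adjusted p = 0.7491) and −0.07 (SE 0.357) in the same order, and that of Fmo2 was −0.01 (SE 0.343) and −0.29 (SE 0.337). The Fmo4 value of 0.44 was 1.25 without Ground replicate 2, 0.12 without Ground replicate 1, 0.21 without Ground replicate 3 and 0.27 without Space replicate 3, with no call. The Fmo2 value of −0.29 was −0.58 without Ground replicate 4, −0.07 without Ground replicate 5, −0.16 without Ground replicate 6, −0.13 without Space replicate 5 and 0.46 without the 3 Serpina6-high libraries, with no call either. For Fmo1 the alternatives spanned −0.03 to 0.26 in replicates 1 to 3 and 0.10 to 0.24 in replicates 4 to 6. These errors come from one fit over all 18 libraries and are not the spread of the libraries compared. For Fmo5 in replicates 1 to 3 the alternatives spanned −0.19 to −0.0003. Errors of this size leave room for differences of the size of the values themselves.

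Against BDF1, Fmo1 gave the only call of a member within a set. In replicates 4 to 6 it was lower in Ground pups, with a log2 fold change of −0.49 (SE 0.149, adjusted p = 0.03477), 304 ± 27.4 against 427 ± 14.6 CPM (SD, n = 3), with all 3 Ground livers below all 3 BDF1 livers. In this comparison 15.2% of all genes were called, 7.35% of all genes as lower, and 15.8% of genes had Ground wholly below BDF1. Of 25 alternative analyses 18 kept the call, with adjusted p from 0.000256 to 0.1081. It was lost without Ground replicate 4 (adjusted p = 0.08063), Ground replicate 5 (0.09071), BDF1 replicate 4 (0.08304), BDF1 replicate 5 (0.07174) or BDF1 replicate 6 (0.0888), with the replicate number as a block (−0.49, adjusted p = 0.05698), and also without the 3 Serpina6-high libraries, where the difference was −0.59 (adjusted p = 0.1081) with a single Ground library left.

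Space pups had an Fmo1 difference from BDF1 of −0.34 in the same replicates (SE 0.149, adjusted p = 0.1357), at 336 ± 21.02 CPM. All 3 Space livers lay below BDF1, as for 15.6% of genes, while 11.9% of genes were called. In replicates 1 to 3 the Fmo1 differences were 0.21 in Space (SE 0.149, adjusted p = 0.4663) and 0.14 in Ground (SE 0.149, adjusted p = 0.7094), and the groups overlapped. That of Ground was −0.05 without Ground replicate 2, 0.24 without Ground replicate 3, 0.28 without BDF1 replicate 2, 0.06 without BDF1 replicate 1 and 0.07 without BDF1 replicate 3, and that of Space was 0.36 without BDF1 replicate 2, 0.14 without BDF1 replicate 1 and 0.11 without Space replicate 1, with no call. The changes of these differences between the sets, −0.56 for Space (adjusted p = 0.1569) and −0.63 for Ground (adjusted p = 0.1252), did not pass the test, in which 3.19% and 2.74% of genes did. With total counts both were called, at −0.83 (adjusted p = 0.03751) and −1.04 (adjusted p = 0.009502), and with DESeq2 that of Ground was (−0.63, adjusted p = 0.04685). Total counts shifted the median gene of this change by −0.27 for Space and −0.40 for Ground. The pup comparisons share their BDF1 libraries.

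Other values moved in the same livers as Fmo1. Hepatocyte markers (7 of 8 listed genes in the table, none at 0, mostly Alb) summed to 238170 to 297110 CPM in Space and 223730 to 394340 in Ground of replicates 4 to 6, against 79911 to 103250 in BDF1. Leukocyte markers (3 of 3, none at 0) summed to 6.01 to 7.04 CPM in Space and 6.56 to 8.62 in Ground against 3.74 to 6.27 in BDF1, and cholangiocyte markers to 3.05 to 7.75 in Space and 2.49 to 3.75 in Ground against 4.57 to 6.25, so that for both lists Ground lay apart from BDF1 and Space overlapped it. Kupffer cell markers (5 of 5) summed to 85.3 to 124 CPM in Space and 79.3 to 115 in Ground against 39.0 to 84.7 in BDF1, and here Ground overlapped. The pancreas list (2 of its 4 genes at 0 in each group) summed to 9.31 to 18.7 CPM in Space and 6.70 to 12.4 in Ground against 33.2 to 38.9 in BDF1. It was nearly all Cela1, while Prss2 and Ctrb1 reached at most 0.134 and 0.207 CPM and Pnlip was at 0 in all 18 libraries. The lung list summed to 1.14 to 1.72 CPM in Space and 0.467 to 1.87 in Ground against 0.394 to 1.11 in BDF1, and Ground overlapped BDF1. The part of these in the Fmo1 difference was not tested. With library totals in place of TMM factors, the median gene shifted by −0.47 for Ground and −0.40 for Space, and Fmo1 lay at −0.97 and −0.75, about as far below the median gene as before.

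**Figure D3:**
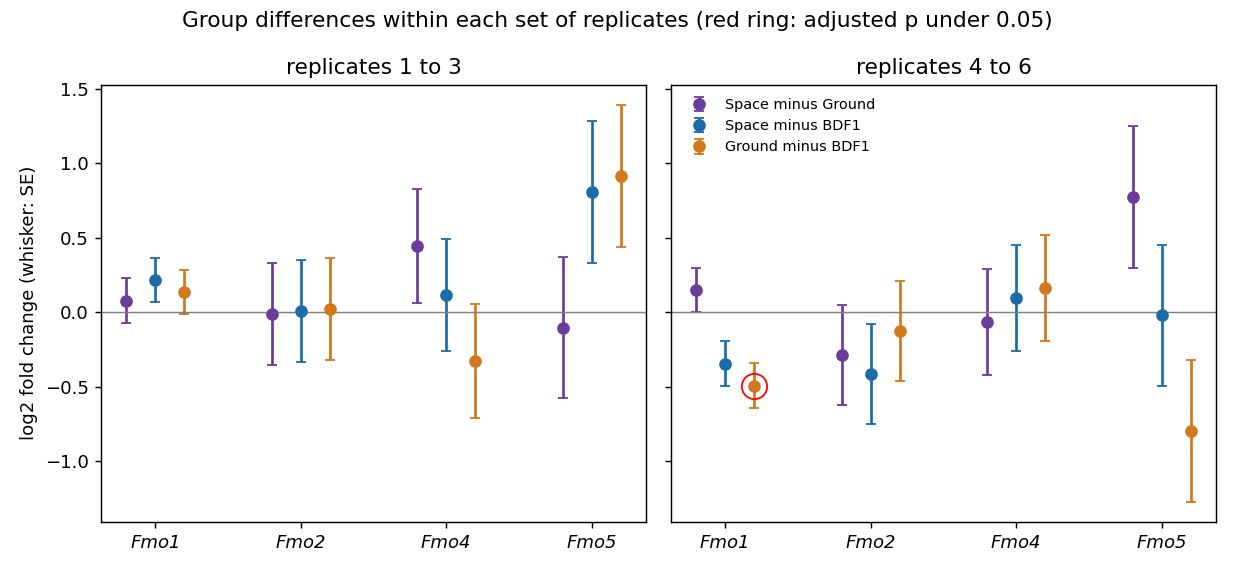
Log2 fold changes of the members between groups, within replicates 1 to 3 (left) and 4 to 6 (right), with whiskers of 1 SE, from the fit over 18 libraries. A red ring marks the single call, Fmo1 in Ground against BDF1 of replicates 4 to 6, and the largest whiskers belong to Fmo5.

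For Fmo5 the pups of replicates 1 to 3 stood above BDF1 without passing the test over all libraries. Means were 1170 ± 82.7 CPM in Space and 1258 ± 164 in Ground against 667 ± 168 in BDF1 (SD, n = 3). The difference was 0.81 on the log2 scale for Space (SE 0.477, adjusted p = 0.3771) and 0.92 for Ground (SE 0.478, adjusted p = 0.3621). Groups did not overlap in either case, which held for 18.5% and 12.2% of all genes in that direction, and 4.64% and 1.92% of genes were called. Stellate and fibroblast markers (5 of 5, none at 0) also lay higher in these pups, at 145 to 188 CPM in Space and 127 to 173 in Ground against 101 to 121 in BDF1. Hepatocyte markers summed to 95659 to 97969 CPM in Space and 76682 to 97269 in Ground against 63871 to 81122 in BDF1, so that Ground overlapped BDF1. Markers of sinusoidal endothelium (5 of 5, none at 0) were lower in Space, at 49.6 to 53.9 CPM against 66.7 to 78.8 in BDF1, with 60.3 to 97.7 in Ground. Cholangiocyte markers were lower in Space too, at 6.92 to 7.90 against 10.7 to 13.8 CPM, with 8.86 to 11.2 in Ground. Leukocyte markers were higher in Ground, at 5.80 to 6.87 against 3.14 to 4.56 CPM, with 3.87 to 4.65 in Space. The lung list (4 of 4, with 2 at 0 in each group) lay higher in both pup groups, at 1.20 to 1.99 CPM in Space and 1.51 to 3.96 in Ground against 0.421 to 0.988 in BDF1. Of this list Sftpa1 reached 3.48 CPM over the 18 libraries, Ager and Sftpc at most 0.553 and 0.156, and Scgb1a1 was at 0 in all 18. The part of these was not tested.

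The Fmo5 call differed between analyses. With the 9 libraries of replicates 1 to 3 fitted alone, Fmo5 was called in both comparisons at much the same differences, 0.80 for Space (adjusted p = 0.01757) and 0.91 for Ground (adjusted p = 0.01677). Leaving out the 3 Serpina6-high libraries, none of which belongs to replicates 1 to 3, gave 0.80 (adjusted p = 0.007327) and 0.92 (adjusted p = 0.005787). These analyses also differ in scaling and in the genes tested, and the cause was not tested. Neither difference was called when any single library was left out of the 18.

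In replicates 4 to 6 the Fmo5 difference from BDF1 was −0.02 for Space (SE 0.474, adjusted p = 0.981) and −0.80 for Ground (SE 0.477, adjusted p = 0.2789). Without Ground replicate 4, the Ground liver with the most Fmo5, the latter was −1.73 and passed the test (adjusted p = 0.01055), and without Ground replicate 5 it was −0.40. Without the 3 Serpina6-high libraries the signs turned, to 0.38 for Space (adjusted p = 0.1842) and 0.17 for Ground (adjusted p = 0.7016), with 2 Space livers and 1 Ground liver left. The change of the difference between the sets was −0.83 for Space (adjusted p = 0.553) and −1.71 for Ground (adjusted p = 0.1959), and the latter was called without Ground replicate 4 at −2.65 (adjusted p = 0.01194). With the 3 Serpina6-high libraries left out these changes were −0.42 (adjusted p = 0.3397) and −0.74 (adjusted p = 0.2087), and that of Space was −0.43 without Space replicate 4.

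Beside Serpina6, the Fmo5 values split replicates 4 to 6 in a plain way. Fmo5 was at 117 to 218 CPM in the 3 libraries with 30939 CPM of Serpina6 or more, and at 493 to 765 CPM in the other 6. In log2 CPM centred on each set, r of Fmo5 with Serpina6 was −0.86 over 18 libraries, and −0.23 over the 15 libraries without the 3. For the other members r with Serpina6 over 18 libraries was −0.22 in Fmo1, 0.34 in Fmo2 and 0.31 in Fmo4. Without the 3 libraries these were 0.61, 0.41 and 0.64, so that the sign turned for Fmo1. Within replicates 1 to 3 they were 0.78, 0.57 and 0.64, and within replicates 4 to 6 −0.39, 0.45 and 0.81. Those of Fmo5 were −0.24 and −0.96. These correlations describe the libraries and share their depth and scaling.

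**Figure D4:**
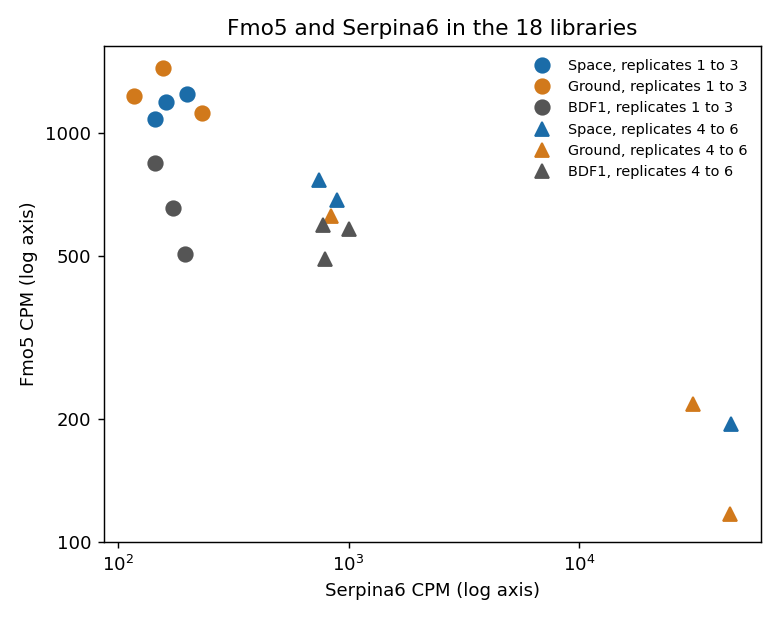
Fmo5 against Serpina6 in CPM, both on log axes, for the 18 liver libraries by group (colour) and set of replicates (circles 1 to 3, triangles 4 to 6). The 3 libraries at the right lie at high Serpina6 with Fmo5 between 117 and 218 CPM.

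Fmo2 and Fmo4 gave no call against BDF1 in either set. The largest such difference of Fmo2 was that of Space in replicates 4 to 6, −0.41 on the log2 scale (SE 0.335, adjusted p = 0.437), with 43.7 ± 8.82 against 58.2 ± 3.17 CPM (SD, n = 3) and no overlap, as for 15.6% of all genes in that direction. It was −0.26 without Space replicate 5. With total counts it was −0.83 and called (adjusted p = 0.0414), where the median gene moved as given above. In Ground of the same replicates the Fmo2 difference was −0.13 (adjusted p = 0.8374), and it was 0.17 without Ground replicate 4, −0.35 without Ground replicate 5, −0.25 without Ground replicate 6, −0.66 with total counts and −0.98 without the 3 Serpina6-high libraries, where it was larger than that of Space (−0.52), with no call. In replicates 1 to 3 the Fmo2 differences were 0.01 for Space (SE 0.343) and 0.02 for Ground (SE 0.342). For Fmo4 they were 0.11 (SE 0.377) and −0.33 (SE 0.381) in replicates 1 to 3, and 0.10 (SE 0.356) and 0.16 (SE 0.355) in replicates 4 to 6. The Fmo4 value of −0.33 in Ground was −1.14 without Ground replicate 2 (adjusted p = 0.07498), −0.01 without Ground replicate 1, −0.09 without Ground replicate 3, −0.63 without BDF1 replicate 1 and −0.08 without BDF1 replicate 2. The smaller differences of Fmo2 and Fmo4 named here changed sign under at least 1 alternative each. Fmo4 rested on 79 to 518 counts per library.

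Among the members, set-centred log2 CPM of Fmo1 and Fmo2 had r of 0.55 over 18 libraries, Fmo2 and Fmo4 0.56, and Fmo1 and Fmo4 0.39. Fmo5 had r of 0.25 with Fmo1, −0.42 with Fmo2 and −0.39 with Fmo4. Within replicates 4 to 6 alone r was −0.04 for Fmo1 and Fmo4 and 0.34 for Fmo1 and Fmo5, and Fmo5 had −0.54 with Fmo2 and −0.74 with Fmo4. Fmo1 and Fmo2 had r of 0.75 and Fmo1 and Fmo5 −0.06 without the 3 Serpina6-high libraries.

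Genes whose pattern was most like a member were taken from 9103 genes averaging 5 CPM or more, by the same r over 18 libraries. For Fmo5 they were Gnmt, the glycine N-methyltransferase of the methionine cycle (r = 0.94), Sfxn5 (0.93) and Gypc (0.92), and at the other end 4933404O12Rik (−0.95), the imprinted gene Peg3 (−0.94) and the receptor gene Fgfr2 (−0.92). Without the 3 Serpina6-high libraries these were 0.79, 0.68, 0.70, −0.75, −0.88 and −0.81. For Fmo1 they were Hoga1 (0.88), Slc25a21 (0.87) and 2610528J11Rik (0.87) against Baz1a (−0.89), Fbxo31 (−0.88) and Serinc3 (−0.86).

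The corresponding genes were less close for the scarcer members. Fmo4 was most like Mpc2, a subunit of the mitochondrial pyruvate carrier (0.85), Cryzl1 (0.83) and Rbm3 (0.82), and least like Antxr2 (−0.85), Stk4 (−0.80) and Msantd4 (−0.80). Fmo2 was most like 4930556M19Rik (0.81), Vamp2 (0.79) and Prox1os (0.78), and least like Pcsk7 (−0.82), Hmgxb3 (−0.70) and Slco2a1 (−0.69). Without the 3 Serpina6-high libraries the smallest of these 12 values in size was −0.73 (Slco2a1).

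Of 9 tested genes that supply flavin or electrons, 2 rose and 2 fell in Ground against BDF1 of replicates 4 to 6, where 15.2% of all genes were called, and their median difference was −0.28 against 0.01 over all genes. Slc25a32, which carries flavin into mitochondria, rose by 0.86 (SE 0.190, adjusted p = 0.007056), and Cyb5r3, the cytochrome b5 reductase, rose by 0.74 (adjusted p = 0.02949). Flad1, the FAD synthase, fell by 0.42 (adjusted p = 0.01185) and Por, which passes electrons to cytochromes P450, fell by 0.46 (adjusted p = 0.04776). In Space, Slc25a32 rose in replicates 1 to 3 (0.78, adjusted p = 0.02756) and Cyb5r3 in replicates 4 to 6 (0.79, adjusted p = 0.02648), the single calls of this list there, beside 4.64% and 11.9% of all genes. Leaving out the 3 Serpina6-high libraries, 2 rose in Space of replicates 1 to 3, where 685 of 14122 genes rose. In Space of replicates 4 to 6 a single gene rose, where 778 of all genes did. A single Ground library was then left in replicates 4 to 6, so its count is not given.

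These calls held to different degrees over the 25 alternative analyses. Those of Slc25a32 and Flad1 in Ground were kept in 23 each, both being lost in the separate fit of the set (adjusted p = 0.05759 and 0.06395), Slc25a32 also with total counts and Flad1 also without BDF1 replicate 5 (0.05405). That of Por was kept in 10. Por was not called with the replicate block (adjusted p = 0.09219), in the separate fit of the set (0.1046), without the filter (0.05383) or in 12 of the 18 omissions of a single library, among them each BDF1 library of replicates 4 to 6 and Ground replicates 4 and 5 (0.07745 to 0.1467). The Slc25a32 call in Space was kept in 18 and lost with total counts (0.1736) and without any one of the 6 libraries compared (0.06623 to 0.1254). The Cyb5r3 calls were kept in 18 in each group, and were lost without the 3 Serpina6-high libraries, with the replicate block (0.06498 in Space and 0.0714 in Ground), in the separate fit (0.07083 and 0.06826), without BDF1 replicate 4 or 5, and without Space replicate 4 in Space (0.59) and Ground replicate 5 in Ground (0.55). With total counts the Cyb5r3 differences were 0.38 and 0.25 and that of Slc25a32 in Ground 0.42, uncalled.

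Of 19 tested phase I enzymes outside the P450 family, 4 fell in Ground and 2 fell in Space against BDF1 in replicates 4 to 6 and none rose, where 15.2% and 11.9% of all genes were called. In replicates 1 to 3 none was called. When the 3 Serpina6-high libraries were left out, with 20 tested, 3 fell in Space of replicates 4 to 6. Over all genes of that fit 581 of 14122 fell there. In Space of replicates 1 to 3 a single enzyme rose, where 685 of all genes did. The count of Ground in replicates 4 to 6 is not given, since a single Ground library was left. Aox3, an aldehyde oxidase, fell by 1.56 in Ground (SE 0.227, adjusted p = 0.0005374) and by 1.14 in Space (SE 0.224, adjusted p = 0.004824), from 197 ± 18.5 CPM in BDF1 to 67.0 ± 22.3 and 89.3 ± 23.6 (SD, n = 3). Suox, the sulfite oxidase, fell by 0.59 in Space (adjusted p = 0.005525) and by 0.58 in Ground (adjusted p = 0.004716). Cbr1, a carbonyl reductase, and Maoa, a monoamine oxidase, fell by 0.63 and 0.60 in Ground (adjusted p = 0.04595 and 0.02349) and did not pass without the 3 Serpina6-high libraries. The calls of Aox3 and Suox were kept in all 25 alternatives, that of Maoa in 19 and that of Cbr1 in 9. The Maoa call was lost in the separate fit of the set (adjusted p = 0.06523) and without Ground replicate 5 or 6 or BDF1 replicate 4 or 6 (adjusted p = 0.06179 to 0.09582), and that of Cbr1 with the replicate block (0.07836), in the separate fit (0.1248) and in 13 of the 18 omissions of a single library, with −0.42 without Ground replicate 5 (adjusted p = 0.1649).

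Of 16 regulators linked to Fmo genes, 3 rose in Space against BDF1 in replicates 1 to 3 and 2 in replicates 4 to 6, and in Ground 2 and 5 rose, while none fell. Over all genes 4.64% and 11.9% were called for Space and 1.92% and 15.2% for Ground. Without the 3 Serpina6-high libraries 4 rose and 1 fell in Space of replicates 1 to 3, where 685 of 14122 genes rose and 522 fell. In that fit 2 rose in Space of replicates 4 to 6, beside 778 of all genes. For Ground of replicates 1 to 3 there were 5 rises, beside 408 of all genes. A single Ground library was left in replicates 4 to 6, so no count is given for it. Cebpb rose in both pup groups of replicates 1 to 3, by 1.42 in Space (adjusted p = 0.01198) and 1.39 in Ground (adjusted p = 0.02322), from 60.7 ± 11.5 CPM to 163 ± 9.25 and 159 ± 56.5 (SD, n = 3). Nr1i3, the CAR receptor, rose in both groups of replicates 4 to 6, by 1.04 in Space (adjusted p = 0.02794) and 1.22 in Ground (adjusted p = 0.009941). Nr1i2, the PXR receptor, rose in Space in both sets, by 0.78 and 0.77 (adjusted p = 0.006873 and 0.003873), which was kept in 25 and 24 of 25 alternatives and was 0.37 in the latter set with total counts (adjusted p = 0.05397). Both Cebpb calls were lost without BDF1 replicate 1 (adjusted p = 0.05006 in Space and 0.08505 in Ground) or 2 (0.06375 and 0.1082), and that of Ground also without Ground replicate 1 (0.09127) or BDF1 replicate 3 (0.05586). The Nr1i3 call in Space was lost with total counts (0.66, adjusted p = 0.08375), in the separate fit of the set (0.08885) and without Space replicate 5 or BDF1 replicate 4, 5 or 6 (0.0516 to 0.1158), and that in Ground without Ground replicate 6 (0.05654).

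Foxo1, a forkhead factor of insulin signalling, rose in both pup groups of replicates 1 to 3, by 0.63 in Space (adjusted p = 0.009801) and 0.68 in Ground (adjusted p = 0.01131). Neither Foxo1 call passed with total counts (0.49 and 0.61, adjusted p = 0.08117 and 0.06144) or without BDF1 replicate 2 (0.58 and 0.63, adjusted p = 0.0547 and 0.07413), and that of Ground also not without Ground replicate 1 (0.59, adjusted p = 0.05354). Ghr, the growth hormone receptor gene, rose by 2.39 and Nfe2l2, the oxidative stress factor NRF2, by 0.54 in Ground of replicates 4 to 6 (adjusted p = 0.03059 and 0.02141). Without the 3 Serpina6-high libraries the Ghr difference was 0.03 and that of Nfe2l2 0.55, and neither passed. With total counts the Nfe2l2 difference was 0.07 (adjusted p = 0.7294). Both calls were also lost without Ground replicate 5, where Ghr was 1.66, or BDF1 replicate 5 or 6, and that of Ghr without Ground replicate 6 or BDF1 replicate 4, with the replicate block (2.48, adjusted p = 0.07272) and in the separate fit of the set (adjusted p = 0.1353) too.

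Among 9 tested genes of choline, amine and one-carbon metabolism, 1 rose in Space against BDF1 in each set and none was called in Ground, beside 4.64% and 11.9% of all genes for Space and 1.92% and 15.2% for Ground. With the 3 Serpina6-high libraries left out, 2 and 1 rose in Space, where 685 and 778 of 14122 genes rose. In Ground of replicates 1 to 3 a single gene rose, where 408 of all genes did. For Ground of replicates 4 to 6 no count is given, since a single library was left. Pemt, which methylates phosphatidylethanolamine, rose by 0.68 in replicates 1 to 3 (adjusted p = 0.02326), a call lost without any one of the 6 libraries compared (adjusted p = 0.0526 to 0.08317). Bhmt, which remethylates homocysteine with betaine, rose by 0.74 in replicates 4 to 6 (adjusted p = 0.02775), and 0.68 without the 3 Serpina6-high libraries, where it did not pass (adjusted p = 0.05548). The Bhmt call was lost too without Space replicate 4 or 5 or any BDF1 library of the set (0.05485 to 0.104), and with total counts, at 0.33. Averaged over both sets no Fmo member was called between any of the groups, where 0.0225% of genes were called between Space and Ground, 12.9% between Space and BDF1 and 14.6% between Ground and BDF1.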

How the data were processed

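RNA of 18 livers was sequenced from stranded mRNA libraries. The authors deposited a table of raw counts of reads for each gene, with no normalization. The submitters' processing notes name bcl2fastq 2.20, cutadapt 4.6, HISAT2 2.2.1, HTSeq 2.0.2 and mm10, and the methods name GENCODE M21 for RNA-seq in general. How HTSeq treated strand and reads shared between paralogs is not given in the sources used here, so reads of similar Fmo genes may be split in ways that were not checked. Groups and replicate numbers came from the labels, which call the animals biological replicates.

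After filterByExpr, 13356 genes entered a quasi-likelihood model in edgeR 4.0.16 (R 4.3.3), with TMM scaling, over 6 cells of group and set of replicates, with Benjamini-Hochberg adjustment at 0.05, two-sided. Log2 CPM used a prior count of 2. The fits were also run on simulated data that held no difference between the sets and no libraries like the Serpina6-high ones. That run cannot test the calls given here. No libraries of a cell agreed within sampling noise. Alternatives were other scalings, no filter, DESeq2 1.42.0, a replicate block, separate fits per set, other models of group, the length measure and leaving out each library. Omission of the 3 Serpina6-high libraries was added after seeing the data.

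The members and gene lists were chosen with earlier results of these data known. Named were the members, Fmo6, Fmo9, up to 3 rises and 3 falls per list and within-set comparison among called genes of at least 1 CPM, the 3 most and least alike genes per member, and Serpina6. Some items under this rule are not reported here and are left out of the list counts. Which uncalled member differences were followed through every alternative was settled after their values and sign changes had been seen, so counts over all of them are also given.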

Additional observations from a re-analysis of the deposited data

Results flagged for a closer look

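In Space replicate 4 Serpina6 stood at 45256 CPM, far from the other Space libraries, with a gap to the next of 0.9834 of the range of the 6. It was the single such value among 15 sets of 6 libraries examined for the 4 members and Serpina6. Each set of 6 joins the low and high replicate numbers of a group, between which the levels of all these genes differed. The genes were also chosen with earlier results of these data known. The count of about 0.75 marked by chance takes neither into account, so no conclusion is drawn from it. Fmo5 in Space replicate 4 was 195 CPM, the lowest of Space. Ground replicates 5 and 6 had Serpina6 at 44895 and 30939 CPM, so that no single Ground library lay apart from the rest.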

How the results depend on the processing

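Over the 4 members and 13 contrasts, 52 results were computed under every alternative that could be fitted. The 5 called results, the differences of all 4 members between the sets and Fmo1 in Ground against BDF1, kept their direction throughout, and the set differences were called in all 23 alternatives each. Of the others, 23 changed sign under at least 1 alternative (57 values in all, none of them called, from main differences of up to 0.7968 in size), and 12 were called under at least 1.

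The Fmo5 difference of Space from BDF1 in replicates 4 to 6 turned positive with the replicate block (0.0599), without Space replicate 4 (0.38), BDF1 replicate 4 (0.03) or BDF1 replicate 6 (0.01) and without the 3 Serpina6-high libraries (0.38), with a range of −0.34 to 0.38 when single libraries were left out. That of Ground turned to 0.17 without the 3. The number of members called went from 0 to 1 for Space and for Ground against BDF1 of replicates 1 to 3 in the separate fits and without the 3 libraries, and for both pup groups averaged over sets with total counts and without the 3. With total counts it went from 0 to 2 for Space against BDF1 of replicates 4 to 6 and from 0 to 1 for the change of that difference between sets in Space and in Ground, the latter also with DESeq2. Leaving out single libraries gave 0 to 1 members for that change in Ground and 0 to 1 for Ground against BDF1 of replicates 4 to 6, where the replicate block and the omission of the 3 libraries also gave 0. Causes were not tested, except that total counts shift the median gene, as given above for replicates 4 to 6 and for the change between sets. Averaged over sets the shift was −0.266 for Space and −0.274 for Ground against BDF1.

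Same-numbered libraries did not vary together (r of deviations from cell means −0.694 to 0.106 over 18 pairs, median −0.019), so numbers were not taken as pairs. With the replicate block Fmo1 in Ground against BDF1 of replicates 4 to 6 was −0.49 (edgeR adjusted p = 0.05698), and no other member call within a set was there to change. The block could not be fitted for the difference between the sets over all groups.

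Genes called also moved: for Space against BDF1 of replicates 4 to 6 from 1592 to 4978 with total counts, 939 with the block and 570 in the separate fit, and for Ground from 2031 to 6136 with total counts, 895 in the separate fit and 1067 without the 3 libraries. In replicates 1 to 3 Space against BDF1 went from 620 to 1002 with DESeq2, 354 with the block, 1090 in the separate fit and 1207 without the 3, and Ground from 257 to 137 with total counts, 619 with DESeq2, 92 with the block, 560 in the separate fit and 709 without the 3. Space against Ground went from 1 to 68, 3 to 139 and, averaged over sets, 3 to 290 with DESeq2, to 7, 14 and 28 without the filter, to 28, 1 and 21 without the 3, and between 0 and 76, 75 and 536 without single libraries (76 and 536 without Ground replicate 2, 75 without Space replicate 4). Leaving out single libraries gave 201 to 769 for Space and 35 to 384 for Ground against BDF1 of replicates 1 to 3 (fewest without BDF1 replicate 2), 636 to 1940 and 1114 to 2386 in replicates 4 to 6 (fewest without BDF1 replicate 5), and 221 to 599 and 132 to 753 for the change between sets. The change between sets of a pup difference from BDF1 went from 426 to 849 for Space and from 366 to 782 for Ground with DESeq2, to 230 and 145 with the block, to 1501 for Ground with total counts and to 775 for Space without the 3. With group as the only term, calls averaged over sets fell from 1724 to 490 for Space and from 1950 to 471 for Ground against BDF1, and with total counts they were 4508 and 4639. By the longest transcript, values per kilobase of Fmo1 rose to 54.6 and 114.5, of Fmo2 to 5.78 and 12.7 and of Fmo4 in replicates 4 to 6 to 9.46. Fmo4 had the fewest counts, 79 at the least, and Fmo5 the largest standard errors among the members within sets.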
